A study of Mus musculus with 4 samples.

Results

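The genes of 9 transcription factors that shape and maintain hepatocytes were examined for DNA copy number in mouse liver tumours. They were taken by gene name from the array annotation, and all 9 listed genes were on the array, among 22180 gene names with placed probes. Together they held 23 of the 169093 placed probes, which were printed as 27 spots on each array. Genomic DNA of 4 liver tumours, each from a different Trp53-/- mouse and labelled with Cy5, was hybridized against spleen DNA labelled with Cy3. The series title gives the strain as C57BL/6J and the loss of Trp53, the gene of the tumour suppressor p53, as limited to the liver. The tag Trp53-/- and male sex stand for both channels of every array, so the reference carries the same genotype label as the tumours. The reference was a pool from 3 littermates matched by sex, and the labelling protocol names liver where the sample labels name spleen. The mice were untreated, and the labels give neither their age, the agent that deleted the gene nor the share of tumour cells in the tissue. Each value below is the log2 ratio of tumour over reference, centred on the autosomal median of its array, so 0 stands for the typical autosomal probe. Only DNA was measured, so expression markers of the tissue could not be examined.

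Hepatocyte identity rests on a network of transcription factors that bind one another's genes and the genes of liver metabolism together. FOXA proteins open chromatin at liver enhancers, HNF4A, HNF6 and C/EBP-alpha activate genes of differentiated hepatocytes, and the nuclear receptors FXR and PPAR-alpha respond to bile acids and fatty acids. A copy-number ratio reads the dose of the gene in the DNA and says nothing of its transcript.

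All 9 genes were covered by probes of 56 to 60 bases, read here from the deposited array annotation, with positions on mouse build mm9. No annotation of that build was used, so whether a probe lies in an exon, an intron or a UTR is not given. Foxa1, Foxa2, Foxa3 and Cebpa rest on 1 probe each, Hnf4a and Onecut1 on 2, Nr1h4 and Prox1 on 4, and Ppara on 7. A choice of probes from genes that stand above their surroundings in 1 or more tumours, or whose probes differ among themselves, is shown with G and C in capitals, since base composition can move hybridization.
Foxa1, chr12:58645586-58645645: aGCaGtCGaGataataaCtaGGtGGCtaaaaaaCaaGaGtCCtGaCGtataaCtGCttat
Foxa2, chr2:147868688-147868744: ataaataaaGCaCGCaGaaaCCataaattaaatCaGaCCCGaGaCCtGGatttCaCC
Hnf4a probe 1, chr2:163383594-163383649: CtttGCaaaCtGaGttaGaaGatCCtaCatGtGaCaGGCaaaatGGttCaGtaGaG
Onecut1 probe 2, chr9:74737193-74737250: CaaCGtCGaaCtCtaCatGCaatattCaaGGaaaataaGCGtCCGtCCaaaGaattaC
Prox1 probe 4, chr1:191984411-191984468: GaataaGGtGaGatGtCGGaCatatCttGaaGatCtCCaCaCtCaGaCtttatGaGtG
Nr1h4 probe 2, chr10:88945838-88945897: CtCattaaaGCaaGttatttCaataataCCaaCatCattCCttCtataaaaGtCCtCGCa
Ppara probe 1, chr15:85567182-85567240: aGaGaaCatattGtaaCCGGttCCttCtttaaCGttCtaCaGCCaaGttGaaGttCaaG
Ppara probe 3, chr15:85578714-85578773: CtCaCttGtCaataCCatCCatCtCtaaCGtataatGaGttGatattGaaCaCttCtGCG
The GC content of these probes lay between 31.67% for Nr1h4 probe 2 and 41.38% for Prox1 probe 4. None of the 23 probes lay in the 13 RefSeq promoter windows of the 9 genes (250 bases before to 50 after a start, sequences of assembly GRCm38), whose own GC content ran from 45.7% for Nr1h4 to 74.7% for Ppara.

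The arrays differed in quality. The SD between neighbouring autosomal probes was 0.12, 0.37, 0.15 and 0.15 for tumours 1 to 4, and the file header put the spread of tumour 2's array outside the accepted range. At least 98.99% of spots in each channel were well above background, and no spot of the 9 genes was flagged, dim or saturated on any array. Chromosome X averaged -0.82, -0.054, -0.0061 and 0.84 and chromosome Y 2.22, -0.087, -0.20 and -2.35 in tumours 1 to 4. The arrays of tumours 1 and 4 thus go against the label of male sex in both channels and against the stated match by sex. Results are therefore also given without these 2 arrays. Over autosomal probes the 4 arrays correlated positively in every pair (r of 0.14 to 0.50). Tumours 1 and 2 shared a slide, as did tumours 3 and 4. Trp53 itself, covered by 2 probes, read -0.19, -0.14, 0.12 and -0.30, and the deleted part is not stated in the labels, so these probes do not check the genotype.

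Ppara on chromosome 15 was the member with the highest mean, except under normexp background correction, where Foxa2 was higher (0.36 against 0.27). Its value lay close to that of the DNA around it. The gene encodes the nuclear receptor that drives fatty acid oxidation during fasting. Ppara (85567182 to 85622681) read 0.23, 0.47, 0.20 and 0.24 in tumours 1 to 4, and its mean was 0.29 ± 0.12 (SD, n = 4), a ratio of 1.22. Every tumour lay above 0, with tumour 2 well above the other 3. All 28 readings of its 7 probes were above 0, from 0.070 in tumour 3 to 1.05 in tumour 2. The 145 probes within 1 Mb read 0.23, 0.36, 0.15 and 0.23, and chromosome 15 as a whole 0.21, 0.29, 0.14 and 0.24. Gene, flank and chromosome thus shared the order of the tumours at the top, with tumour 2 highest.

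The excess of Ppara over its flank was 0.0040, 0.11, 0.056 and 0.011, a mean of 0.046 ± 0.050 (SD, n = 4; limma adjusted p = 0.546). Without tumour 2 this mean was 0.024. Ppara was the only member at or above 0.2 in at least 3 tumours, and it was so in 4. Over all 21336 autosomal genes tested 2.63% reached that level, and over the genes of chromosome 15 41.2% did. Under normexp background correction Foxa2 and Foxa3 reached that level too, as did 8.93% of all genes. No member lay at or below -0.2 in at least 3 tumours, against 3.59% of all genes. Its limma p of 0.00318 became 0.168 after Benjamini-Hochberg adjustment over all genes. Without the arrays of tumours 1 and 4 the mean was 0.34. The nearest differently named genes with probes, an uncharacterised cDNA entry and AW124722, averaged 0.23 ± 0.12 and 0.24 ± 0.17 (SD, n = 4).

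**Figure D1:**
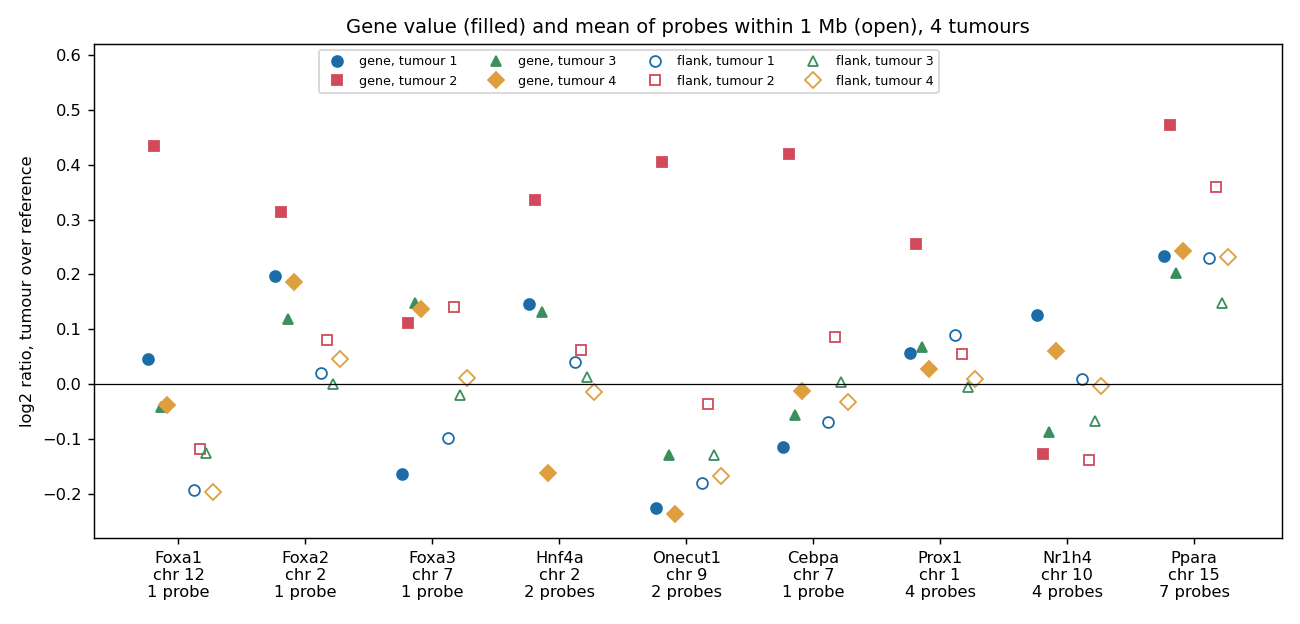
Log2 ratio of tumour over reference (vertical axis) for each gene, with 1 filled point per tumour for the gene value and 1 open point per tumour for the mean of the probes within 1 Mb. Ppara and its flank lie between 0.15 and 0.47 in all 4 tumours, and the flanks of Foxa1 and Onecut1 lie below 0 in all 4.

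Probe 3 of Ppara was printed 5 times on each array, which gives the technical error of 1 probe. Its spots averaged 0.10, 0.65, 0.27 and 0.16 in tumours 1 to 4, with SDs between spots of 0.048, 0.048, 0.098 and 0.090. These SDs cover the error between spots of 1 probe only, not that between probes or tumours. Tumour 2 was highest at probe 1 too, which read 0.11, 1.05, 0.36 and 0.42, while probe 7 read 0.27, 0.23, 0.37 and 0.26 with tumour 2 lowest. The SD between the 7 probes was 0.091, 0.30, 0.13 and 0.11, largest on the array of tumour 2.

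Nr1h4, on chromosome 10, encodes FXR, the bile acid receptor that restrains bile acid synthesis. Its 4 probes (88924965 to 88961235) gave gene values of 0.13, -0.13, -0.087 and 0.061, a mean of -0.0070 ± 0.12 (SD, n = 4; limma adjusted p = 0.956). Tumours 1 and 4 lay above 0 and tumours 2 and 3 below, as did the 132 flanking probes in tumours 1 to 3 at 0.0097, -0.14 and -0.067, while the flank of tumour 4 read -0.0026. The difference of gene and flank averaged 0.043 ± 0.060 (SD, n = 4), within the spread of the tumours. The median over probes in place of the mean turned the sign of the gene value, to 0.051.

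Probe 2 of Nr1h4 differed most from the other probes of the gene. It read 0.075, -0.55, -0.47 and 0.053, whereas probes 1 and 4 were above 0 in all 4 tumours, at means of 0.14 ± 0.065 and 0.12 ± 0.075 (SD, n = 4). Probe 3 lay near or below 0, at -0.015, -0.18, 0.0024 and -0.060. In tumour 3 probe 2 lay above only 0.758% of its flanking probes, and in tumour 2 above 12.1%. The level of the tumour channel at this probe, relative to the array's autosomal median, was 0.30, -0.091, 0.11 and -0.0024, and that of the reference channel was 0.22, 0.44, 0.56 and -0.062. The reference channel was thus higher on the arrays of tumours 2 and 3 than on the other 2.

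**Figure D2:**
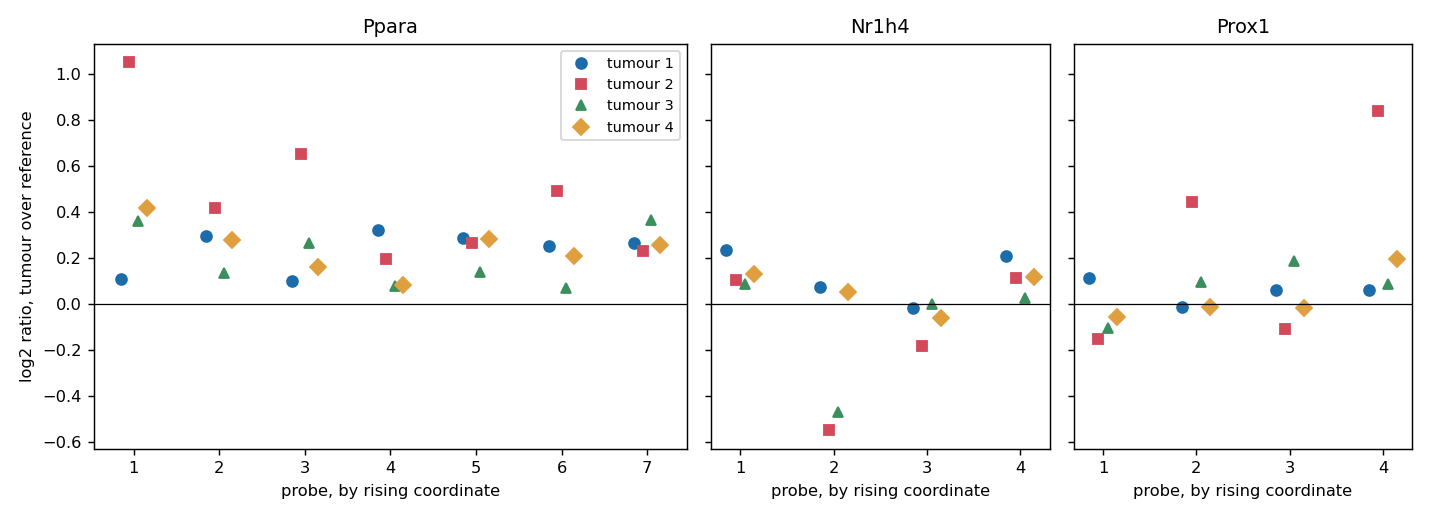
Log2 ratio of tumour over reference (vertical axis) for each probe of Ppara, Nr1h4 and Prox1, numbered by rising coordinate, with 1 point per tumour. All 28 points of Ppara lie above 0, and probe 2 of Nr1h4 reads -0.55 in tumour 2 and -0.47 in tumour 3.

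Hnf4a, on distal chromosome 2, encodes a nuclear receptor needed for the differentiated state of hepatocytes. Its 2 probes gave 0.15, 0.34, 0.13 and -0.16, a mean of 0.11 ± 0.21 (SD, n = 4; limma adjusted p = 0.485). Tumour 4 lay below 0 and the other 3 above. The 156 flanking probes stayed near 0, at 0.041, 0.062, 0.013 and -0.014, and the difference averaged 0.087 ± 0.17 (SD, n = 4). The gene mean was 0.039 without tumour 2 and 0.20 without tumour 4, and the difference 0.025 and 0.17. The reading of tumour 2 rests on spots of low signal, though well above background. The tumour channel of probe 1 was -1.67 relative to the array's median, and the reference channel -1.94, against levels between -0.45 and 0.52 on the other 3 arrays. The value of tumour 2 was -0.58 after normexp background correction and 0.75 with the intensity trend removed, and the mean of Hnf4a was -0.081 and 0.23 in these settings.

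The 3 FOXA genes lie on different chromosomes and gave different readings. Foxa1 encodes a pioneer factor of liver development, and its single probe on chromosome 12 stood above its surroundings in every tumour. It read 0.047, 0.43, -0.041 and -0.037, a mean of 0.10 ± 0.23 (SD, n = 4; limma adjusted p = 0.560). The 154 probes within 1 Mb were below 0 in all 4 tumours, at -0.19, -0.12, -0.13 and -0.20, a mean of -0.16 ± 0.042 (SD, n = 4). Chromosome 12 as a whole averaged -0.12 ± 0.067 (SD, n = 4). Foxa1 therefore exceeded its flank by 0.24, 0.55, 0.084 and 0.16, a mean of 0.26 ± 0.21 (SD, n = 4). The exact two-sided sign-flip test, in which 4 tumours allow 16 sign patterns, gave the smallest p it can reach, 2 of 16 patterns. Any gene whose 4 values share a sign reaches this p, so it adds nothing to the shared sign. For the difference from the flank, 15.8% of all genes were above 0 in all 4 tumours and 13.2% below. No sign-flip test over 4 tumours can pass 0.05. Limma, fitted across all genes, gave an unadjusted p of 0.0237 and an adjusted p of 0.370.

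The Foxa1 probe lay above 96.75%, 94.2%, 72.7% and 89.0% of its flanking probes in tumours 1 to 4, so single flanking probes reached its level on every array. It was bright in both channels, at 0.76, 1.24, 0.64 and 0.77 in the tumour channel and 0.70, 0.79, 0.67 and 0.80 in the reference channel, relative to the array's median. With the trend of the ratio on intensity removed, the mean difference from the flank was 0.11 in place of 0.26, and under normexp background correction it was 0.45. Without tumour 2 it was 0.16, and without the arrays of tumours 1 and 4 it was 0.32. Without tumour 2 the gene value itself averaged -0.011. The closest named gene on the lower side, 7177 bases away and known only as a cDNA entry, read -0.16, -0.67, -0.40 and -0.18 on its 1 probe. On the other side 4921506M07Rik, with 7 probes, read -0.035, -0.099, -0.17 and -0.098.

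Foxa2, which acts beside Foxa1 in liver specification, had the smallest spread between tumours of the 9 genes. Its single probe on chromosome 2 read 0.20, 0.31, 0.12 and 0.19, a mean of 0.20 ± 0.081 (SD, n = 4), with every tumour above 0. The 123 flanking probes read 0.021, 0.081, 0.00078 and 0.046. The difference was 0.18, 0.23, 0.12 and 0.14, on average 0.17 ± 0.050 (SD, n = 4). Its p in the exact sign-flip test was again 2 of 16 patterns, as for any gene with 4 values of the same sign. In limma the gene value had an adjusted p of 0.171 and the difference an adjusted p of 0.370. Between 74.0% and 92.7% of the flanking probes lay below the probe on each array. It too was bright in both channels, between 1.00 and 1.27 in the tumour channel and between 0.67 and 1.11 in the reference channel. With the intensity trend removed the mean gene value was 0.086 and the mean difference 0.057, and under normexp background correction they were 0.36 and 0.30.

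Foxa3, the third member of the family and a regulator of glucose genes in the fasting liver, lies in proximal chromosome 7. Its single probe read -0.16, 0.11, 0.15 and 0.14, a mean of 0.059 ± 0.15 (SD, n = 4; limma adjusted p = 0.646). Tumour 1 stood below the other 3. The 199 flanking probes read -0.099, 0.14, -0.020 and 0.010, and in tumour 1 the difference from them was -0.064. The mean difference, 0.051 ± 0.11 (SD, n = 4), lay within the spread of the tumours. Without tumour 1 the gene mean was 0.13 and without tumour 3 it was 0.029, where the difference was 0.012.

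**Figure D3:**
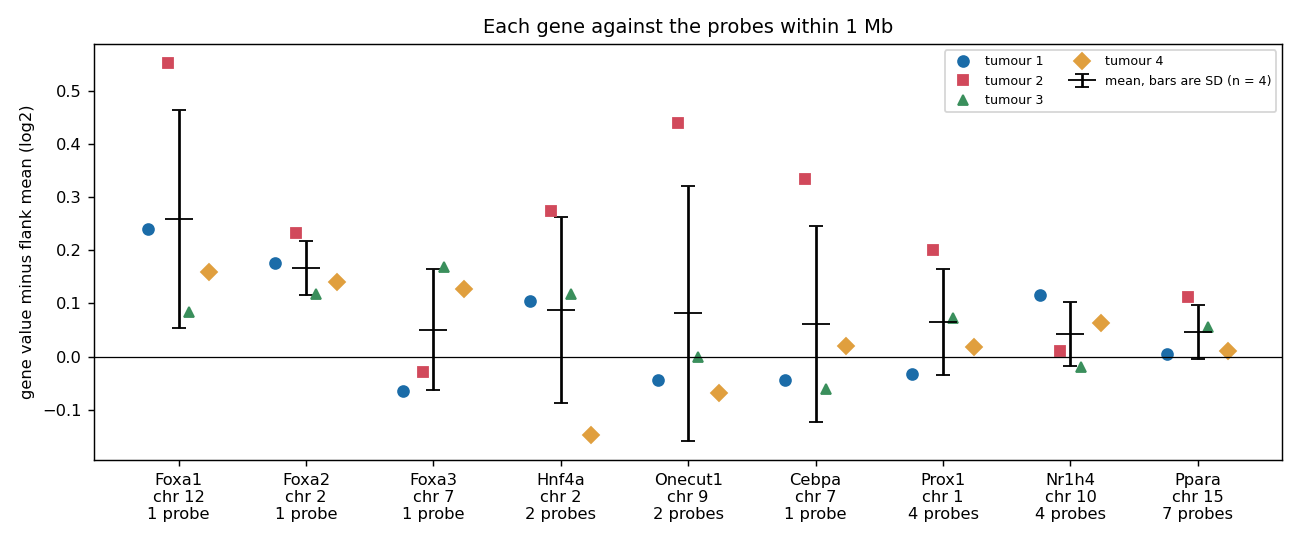
Gene value minus the mean of the probes within 1 Mb (vertical axis, log2) for each gene, with 1 point per tumour and the mean with its SD (n = 4). Foxa1, Foxa2 and Ppara lie above 0 in all 4 tumours, as do 15.8% of all genes. Tumour 2 is the highest point in 7 of the 9 genes and in 39.7% of all genes.

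Onecut1, on chromosome 9, encodes HNF6, which acts in both hepatocyte and bile duct development. Its 2 probes gave -0.22, 0.40, -0.13 and -0.24, a mean of -0.047 ± 0.30 (SD, n = 4; limma adjusted p = 0.838). Tumours 1, 3 and 4 lay below 0 and tumour 2 far above it. The 137 flanking probes were below 0 in all 4, at -0.18, -0.035, -0.13 and -0.17, a mean of -0.13 ± 0.066 (SD, n = 4), beside a mean of -0.12 ± 0.086 for chromosome 9. In tumours 1, 3 and 4 the gene followed its flank to within 0.07, with differences of -0.045, -0.00041 and -0.069, and in tumour 2 it exceeded it by 0.44. Both probes were high in tumour 2, at 0.29 and 0.52. Without tumour 2 Onecut1 averaged -0.197 (limma adjusted p = 0.0956), and without tumours 1 and 4 it averaged 0.14. The closest named neighbour, a cDNA entry 20384 bases away with 2 probes, read -0.38, 0.23, 0.0090 and 0.056, with tumour 2 highest. On the other side BC031353, 73574 bases away with 8 probes, averaged -0.19 ± 0.047 (SD, n = 4).

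Cebpa, on chromosome 7, encodes C/EBP-alpha, a factor that activates metabolic genes and slows cell division. Its single probe read -0.11, 0.42, -0.057 and -0.012, a mean of 0.059 ± 0.24 (SD, n = 4; limma adjusted p = 0.748). Tumour 2 alone lay above 0, and without it the mean was -0.061. The 113 flanking probes read -0.069, 0.085, 0.0047 and -0.032. Its neighbours differed in tumour 2. The closest named one, a cDNA entry 15327 bases away on the side of higher coordinates, read -0.0010 there, and Cebpg, which encodes a related bZIP protein and lies 73275 bases away on the other side, read 0.44, both on 1 probe.

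Prox1, on chromosome 1, encodes a homeobox factor of the early liver bud that also acts as a corepressor. Its 4 probes gave 0.057, 0.26, 0.068 and 0.028, a mean of 0.10 ± 0.10 (SD, n = 4; limma adjusted p = 0.369), with every tumour above 0. Of the 16 single probe readings, 9 were above 0 and 7 below. The 117 flanking probes read 0.089, 0.056, -0.0053 and 0.0089, so the difference, -0.032, 0.20, 0.073 and 0.019, was below 0 in tumour 1. Without tumour 2 the gene mean was 0.051 and the mean difference 0.020. In tumour 2 the probes ran from -0.15 to 0.84, with an SD between probes of 0.47, against 0.051, 0.12 and 0.11 in tumours 1, 3 and 4.

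**Figure D4:**
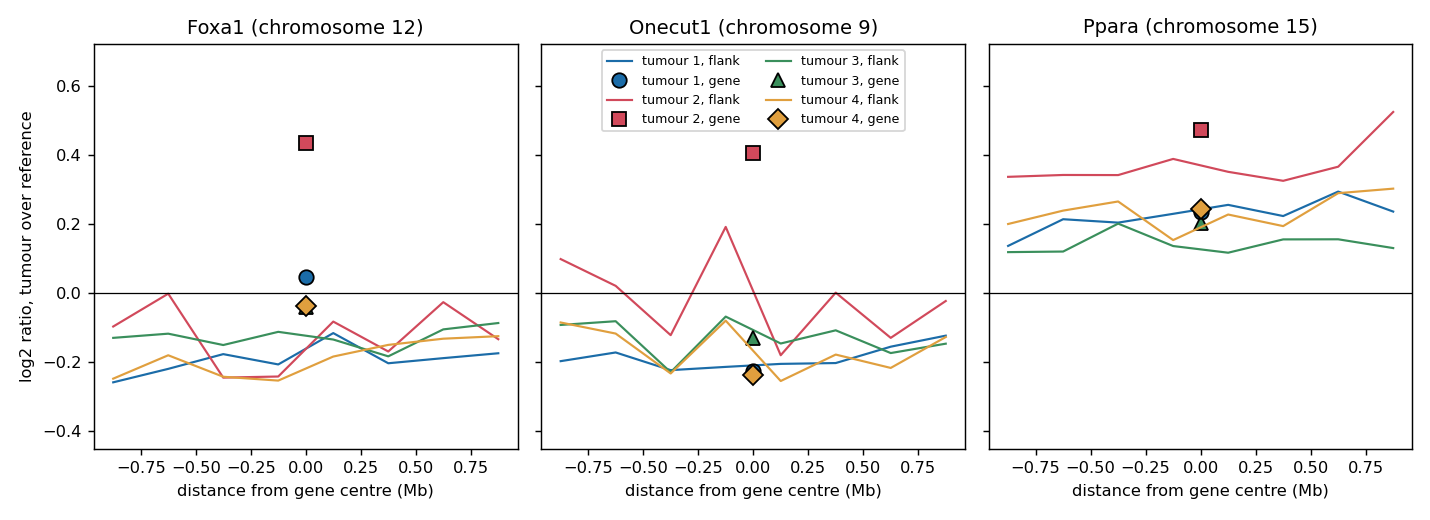
Log2 ratio of tumour over reference (vertical axis) around the 3 genes on chromosomes 12, 9 and 15, against distance from the gene's centre in Mb. Lines are means of bins of 0.25 Mb for each tumour, with 5 to 31 probes a bin, and outlined points are the gene values. The Foxa1 points all lie above the flank mean of their tumour, and the Onecut1 point of tumour 2 is at 0.40.

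The mean of the flank was also taken on each side of these 3 genes apart. The flank of Foxa1 averaged -0.18 ± 0.049 on the side of lower coordinates and -0.13 ± 0.036 on the other (SD, n = 4). That of Onecut1 averaged -0.088 ± 0.11 and -0.15 ± 0.049, and that of Ppara 0.23 ± 0.088 and 0.26 ± 0.089 (SD, n = 4). Both sides of Foxa1 were below 0 and both sides of Ppara above 0 in every tumour, while for Onecut1 the lower side of tumour 2 was above 0, at 0.059.

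Over the 9 genes no test of a mean against 0 passed its threshold. By limma with adjustment over 21336 autosomal genes, 0 members were higher (0.0% of all genes) and 0 lower (0.0%), and 0 differed from their flank (0.0%). At an unadjusted p under 0.05, 2 members passed for the gene value, Ppara and Foxa2, against 3712 of all genes (17.4%). For the difference from the flank 2 passed, Foxa1 and Foxa2, against 2848 (13.3%). Above 0 in all 4 tumours were 3 gene values, of Ppara, Foxa2 and Prox1, against 15.3% of all genes. On chromosome 15, which carries Ppara, 78.4% of genes were so. Of the members 0 lay below 0 in all 4, against 15.6% of all genes. For the difference 3 members, Foxa1, Foxa2 and Ppara, were above 0 in all 4 tumours, against 15.8% of all genes, and 0 below, against 13.2%.

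The median of the 9 mean gene values was 0.10, beside -0.0040 over all genes tested, and the median difference from the flank was 0.065, beside 0.0044. Mean gene values were above 0 in 7 of 9 members and in 48.55% of all genes, and mean differences in 9 of 9 members and in 51.74% of all genes. Tumour 2 held the highest gene value in 7 of 9 members and in 42.8% of all genes. Without tumour 2 the mean gene value was above 0 in 6 of 9 members and 45.83% of all genes, and the mean difference in 7 of 9 members and 50.98% of all genes. With the intensity trend removed 5 of 9 gene values were above 0 (49.63% of all genes), and under normexp background correction 6 of 9 differences were (50.99%). The part of the noisier array of tumour 2 in these counts was not tested. Without the arrays of tumours 1 and 4, the mean gene value was above 0 in 8 of 9 members and 50.66% of all genes, and the mean difference in 8 of 9 members and 52.38% of all genes. The gene values then averaged 0.34 for Ppara, 0.23 for Hnf4a, 0.22 for Foxa2, 0.197 for Foxa1, 0.18 for Cebpa, 0.16 for Prox1, 0.14 for Onecut1, 0.13 for Foxa3 and -0.11 for Nr1h4, over the 2 tumours left.

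By mean gene value the order was Ppara, Foxa2, Hnf4a, Prox1, Foxa1, Cebpa, Foxa3, Nr1h4 and Onecut1. Ppara exceeded Foxa2 in 4 of 4 tumours, by 0.084 ± 0.053 (SD, n = 4). The pair was ranked on these same values, which set its direction, so no test of it is given. Under normexp background correction the order of Ppara and Foxa2 turned, with Foxa2 above Ppara in 4 of 4 tumours. The mean difference from the flank was also larger for Foxa2, at 0.17 against 0.046 for Ppara. Each other pair of neighbours in the order differed by less than the SD of their paired differences over the tumours, from 0.00037 ± 0.23 for Cebpa over Foxa3 to 0.091 ± 0.17 for Foxa2 over Hnf4a.

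The genes on other chromosomes with the most alike values, by Euclidean distance over the 4 tumours among genes of at least 3 probes, were Serpinb8 for Foxa2 (distance 0.026), Gas7 for Prox1 (0.024), Ace for Ppara (0.16), Dhrs7 for Onecut1 (0.11) and Adck1 for Cebpa (0.056). For Hnf4a, Foxa1 and Nr1h4 they were a cDNA entry, BC049351 and 0610038F07Rik, at distances of 0.048, 0.066 and 0.039. Between 8824 and 9200 genes were compared for each member. Ppara had the most distant match, and Ace read 0.14, 0.49, 0.13 and 0.13.

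**Figure D5:**
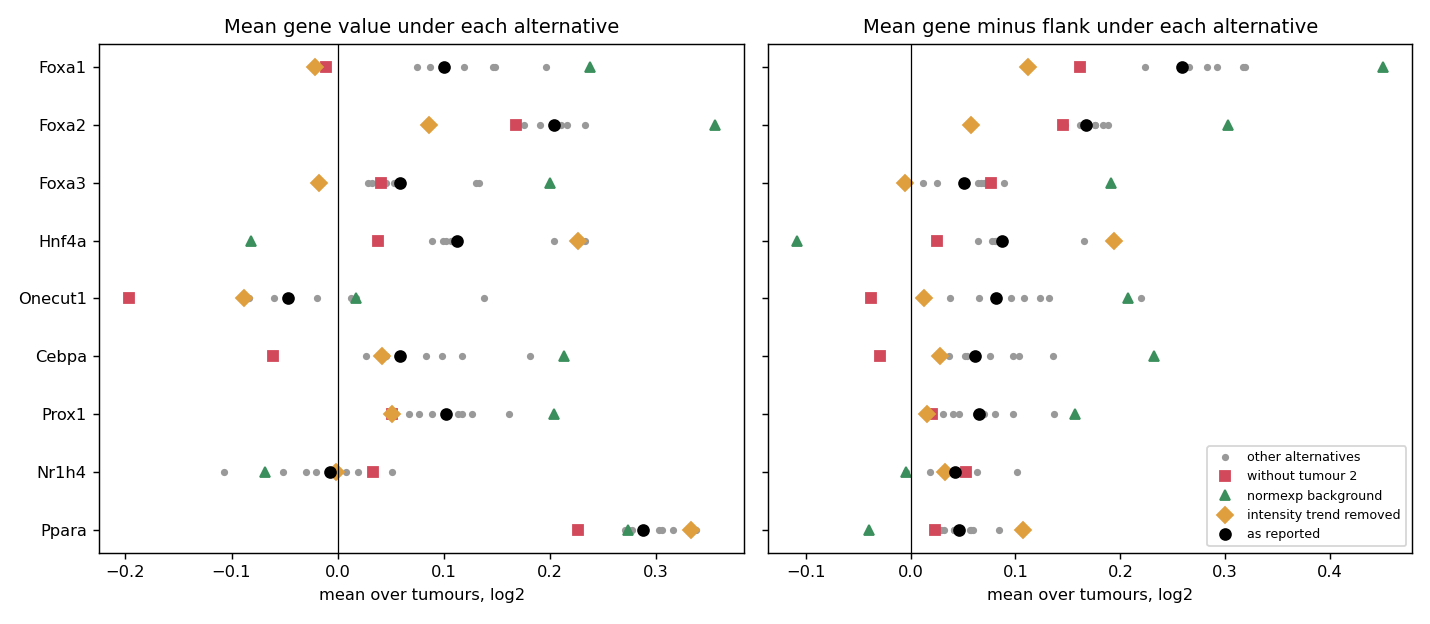
Mean over the tumours (horizontal axis, log2) of the gene value and of the gene minus its flank for each gene, as reported and under each alternative processing. Ppara, Foxa2 and Prox1 keep mean gene values above 0 under every alternative. The mean gene values of Hnf4a, Foxa1, Foxa3, Onecut1, Cebpa and Nr1h4 lie on both sides of 0. The mean differences from the flank of Foxa1, Foxa2 and Prox1 stay above 0. Those of the other genes, Ppara among them, lie on both sides of 0.

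Other transcription factors and cofactors of hepatocytes were examined as a list of 36, of which 34 were measured. In limma 0 passed after adjustment (0.0% of all genes). At an unadjusted p under 0.05, 5 of the 34 passed, against 17.4% of all genes. The median of the means was 0.016. The highest was Tef, a bZIP factor of circadian gene expression and the only one on chromosome 15, at 0.24, 0.60, 0.34 and 0.29, a mean of 0.37 ± 0.16 (SD, n = 4). Rxra, the partner with which both FXR and PPAR-alpha bind DNA, read 0.14, 0.75, 0.13 and 0.22, a mean of 0.31 ± 0.30 (SD, n = 4). The lowest were Rxrb, a second retinoid X receptor, at -0.43 ± 0.35, and Cebpb at -0.29 ± 0.39 (SD, n = 4), both on 1 probe. Of these, Tef and Rxra were above 0 in all 4 tumours and Rxrb was below 0 in all 4. They were named for their extreme means, which favours a shared sign. Over the 34 measured, 5 were above 0 in all 4 tumours and 2 below, against 15.3% and 15.6% of all genes.

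A list of 34 liver genes known as targets of these factors had 29 measured, 3 of them under an older name. In limma 0 passed after adjustment (0.0% of all genes). At an unadjusted p under 0.05, 1 of the 29 passed, against 17.4% of all genes. The median of the means was -0.022. Alb, the gene of serum albumin, averaged 0.24 ± 0.30 and Apoa2, an apolipoprotein gene, 0.24 ± 0.36 (SD, n = 4), with tumour 2 at 0.68 and 0.77. Afp, the gene of alpha-fetoprotein, had the lowest mean at -0.16 ± 0.25, followed by Cyp4a14, a fatty acid hydroxylase induced through PPAR-alpha, at -0.15 ± 0.028 (SD, n = 4). Alb, Afp and Cyp4a14 rest on 2 probes each and Apoa2 on 1. Alb and Afp both lie on chromosome 5, yet on the noisier array of tumour 2 they read 0.68 and -0.53, in opposite directions. In tumour 1 they read 0.0059 and 0.020. Cyp4a14 was below 0 in all 4 tumours, at -0.11, -0.15, -0.17 and -0.17, and its adjusted p in limma was 0.195. Over the 29 measured, 3 were above 0 in all 4 tumours and 2 below, against 15.3% and 15.6% of all genes.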

How the data were processed

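The members and gene lists were chosen with earlier results of these data known. Each of the 4 arrays was deposited as a scanner table, with positions on mm9 per the file headers. Background subtraction and dye normalization of the deposited processed intensities were done by Agilent Feature Extraction, version 12.0.1.1 per the file headers and 12.0.0 per the submitters' processing notes. The deposited log10 ratio served to check direction: recomputed from processed red over green, it matched within 0.001 for at least 99.71% of spots per array. Per the labels, Cy5 marks tumour DNA on every array. This direction was kept although arrays 1 and 4 correlated at -0.61 over all probes, since over autosomes they correlated at 0.18.

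Log2 ratios of processed signals were computed per spot without 81, 258, 96 and 173 flagged spots, with repeated spots averaged and arrays centred on their autosomal median. No loess or quantile step was applied. A gene value is the mean over its probes, and the flank the mean of probes of other names within 1 Mb. Gene values, and gene minus flank, were tested against 0 with limma 3.58.1 (R 4.3.3, eBayes, Benjamini-Hochberg over 21336 autosomal genes), which leaves out the spread of the reference. Single values were tested with exact two-sided sign-flip tests, whose smallest p is 2 of 16 sign patterns. Python 3.11.15 with numpy 2.4.6, pandas 2.3.3 and scipy 1.17.1 was used.

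Named genes were all members, the nearest differently named gene on each side (described where a result turns on it), the most alike gene on another chromosome (1 is not reported here), and the 2 highest and 2 lowest of each list. Alternatives were normexp background correction (offset 50), centring on the mode, flagged spots kept, dim spots left out, intensity or GC trends removed, the median over probes, at least 2 probes a gene, flanks of 0.5 and 2 Mb, the slide as a random block, each tumour left out, and tumours 1 and 4 left out together. The number of arrays limits the precision.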

Additional observations from a re-analysis of the deposited data

Results flagged for a closer look

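Gene values, flank means and differences, 62 in all, were examined for 1 tumour far from the other 3. By Dixon's test of the gap to the nearest other tumour, 12 qualified. Chance gives about 1 in 20 where all tumours spread alike, which these arrays do not, and over all 21336 genes 8.70% of gene values qualified, 77.3% of them through tumour 2. Genes named as the highest or lowest of a list were picked by means that an extreme tumour moves. In 11 of them the distant tumour was tumour 2, whose array was the noisiest. The distant readings of tumour 2 were 0.40 for the Onecut1 gene value, 0.44 for Onecut1 minus its flank and 0.47 for the Ppara gene value. Among other named genes they were 0.24 for Irf2bp1, next to Foxa3, 0.31 for Dhrs7, 0.396 for Adck1, 0.49 for Ace, 0.75 for Rxra, -0.95 for Rxrb, 0.77 for Apoa2 and -0.53 for Afp. Dhrs7, Adck1 and Ace were picked for their likeness to Onecut1, Cebpa and Ppara, so these readings repeat the pattern of those members. The exception was Foxa3, whose distant reading was -0.16 in tumour 1.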

How the results depend on the processing

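No member passed an adjusted p of 0.05 in limma under any alternative. The lowest limma adjusted p of the Ppara gene value was 0.0501, with the slide as a random block. For Foxa2 it was 0.0516, under normexp background correction. In that setting 7080 of all genes had an unadjusted p under 0.05, against 3712 in the main fit. The adjusted p values of Ppara and Foxa2 in the main limma fit were 0.168 and 0.171. A random block for the slide called 171 genes higher, 138 of them on chromosome 15, and 223 lower, 94 on chromosome 9 and 68 on chromosome 12, where the fit without a block called 0. The estimated correlation between arrays of 1 slide was -0.34, below 0, which shrinks the standard error of a mean. The mean gene values of Ppara (0.23 to 0.34), Foxa2 (0.086 to 0.36) and Prox1 (0.051 to 0.20) kept their sign throughout, as did the differences from the flank of Foxa1 (0.11 to 0.45), Foxa2 (0.057 to 0.30) and Prox1 (0.016 to 0.16). Under normexp background correction the gene values of Hnf4a (-0.081) and Onecut1 (0.018) and the differences of Hnf4a (-0.11), Nr1h4 (-0.0047) and Ppara (-0.039) turned sign. With the intensity trend removed the gene values of Foxa1 (-0.022) and Foxa3 (-0.018) and the difference of Foxa3 (-0.0054) did so. The gene value of Nr1h4 was 0.0078 with the GC trend removed and 0.051 with the median over probes. Without tumours 1 and 4 the gene value of Onecut1 was 0.14 and the difference of Nr1h4 -0.0043. Leaving out each tumour in turn gave gene values of -0.011 to 0.15 for Foxa1, -0.197 to 0.017 for Onecut1, -0.061 to 0.12 for Cebpa and -0.051 to 0.033 for Nr1h4, and differences of -0.038 to 0.13 for Onecut1 and -0.029 to 0.10 for Cebpa. The causes of these turns were not tested. The 4 genes with 1 probe have no value where at least 2 probes are required. No paired analysis was possible because there is 1 group.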
